A study of Mus musculus with 9 samples.

Results

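The genes described here encode enzymes and regulators of cholesterol and fatty acid synthesis. A list of 31 mouse genes was taken, covering the mevalonate steps, the steps from squalene to cholesterol, the sterol regulatory element-binding protein (SREBP) control system, sterol transport and fatty acid synthesis. They were found by gene symbol in the platform's annotation, and 30 of the 31 had a probe set assigned to that symbol alone. Acat2, a cytosolic acetoacetyl-CoA thiolase, had none and was not analysed here. Where several probe sets read a gene, the one with the highest mean log2 signal was used, and these 30 were among the 12167 of 18193 genes on the array that were bright enough to test.

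The data are Affymetrix expression arrays of 9 mouse oral tumors, 1 array per tumor, with 3 tumors in each of 3 genotypes. The p53-/- tumors had lost p53. By genotype, the p53R172H/- tumors carried the R172H missense allele opposite a deleted allele, and the p53R172H/+ tumors carried it opposite a wild-type allele. Whether the p53R172H/+ tumors kept the wild-type allele was not tested. All mice were 1 year old. The title of the series attributes the tumors to Ras activation and altered p53, and the strain names of all 3 groups carry the prefix K-, which the labels do not explain. Neither the labels nor the series' design text names the promoter that drove Ras activation or the cells in which it was active. The labels do not say whether the tumors of a group came from separate mice. Each p-value treats the tumors as independent and sets a group difference against the spread between these tumors only.

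Cells make cholesterol from acetyl-CoA through mevalonate, isoprenoid units, squalene and a series of ring modifications. Transcription of most of these enzymes is driven by SREBP2 and SREBP1, membrane proteins that SCAP escorts to the Golgi when sterols are low and that the INSIG proteins hold back when sterols are high. SREBP1 also drives fatty acid synthesis, in which ATP-citrate lyase, acetyl-CoA carboxylase and fatty acid synthase build saturated chains that elongases and desaturases modify. In skin, hair-bearing and oral epithelia, lipid synthesis supplies dividing cells, the permeability barrier and the oil of sebaceous glands.

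RefSeq promoter windows (build GRCm38.p6) were available for 25 of the 31 genes. The 250 bases before each start site were searched on both strands for the sterol element core TCACCCCAC, its looser form TCACNCCAC, which includes the first, the E-box CACGTG, which SREBPs can also bind, and the motifs CCAAT and GGGCGG of their partner factors NF-Y and Sp1. CCAAT was present for 20 of the 25 genes (80%), against 37.5% of all 27025 genes with a window. GGGCGG was present for 21 (84%), against 35.4% of all genes, and CACGTG for 5 (20%), against 6.86%. TCACCCCAC was found for 1 gene, Hmgcs1 (4%), 137 bases before its start, against 0.555% of all genes, and TCACNCCAC was found for no other listed gene, against 1.22%. These counts describe letters in the windows and were not tested. The 27025 genes were not limited to those bright enough to test on the array, unlike nearly all listed genes.

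The 150 bases before the start site are shown for Hmgcs1, which holds the sterol element core, and for 5 genes whose values are described below. They are Cyp51, Idi1 and Nsdhl, which were at their highest in p53R172H/- tumors, and Sc5d and Pnpla3, which set both mutant groups apart from p53-/- tumors. Capitals mark CCAAT on either strand, which reads ATTGG when it lies on the opposite strand, and in Hmgcs1 also TCACCCCAC. Each sequence runs 5′ to 3′ on the strand of the gene.
Hmgcs1 (chr13:119690201-119690350, plus strand): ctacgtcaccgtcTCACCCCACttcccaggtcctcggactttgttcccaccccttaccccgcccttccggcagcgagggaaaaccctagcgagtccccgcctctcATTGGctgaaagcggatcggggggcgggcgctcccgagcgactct
Idi1 (chr13:8885456-8885605, plus strand): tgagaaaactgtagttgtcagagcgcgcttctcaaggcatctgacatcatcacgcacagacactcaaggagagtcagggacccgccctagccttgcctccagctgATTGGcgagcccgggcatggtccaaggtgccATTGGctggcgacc
Cyp51 (chr5:4104698-4104847, minus strand): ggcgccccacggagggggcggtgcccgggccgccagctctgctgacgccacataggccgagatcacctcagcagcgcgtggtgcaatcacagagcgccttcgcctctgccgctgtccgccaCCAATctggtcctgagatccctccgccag
Nsdhl (chrX:72918371-72918520, plus strand): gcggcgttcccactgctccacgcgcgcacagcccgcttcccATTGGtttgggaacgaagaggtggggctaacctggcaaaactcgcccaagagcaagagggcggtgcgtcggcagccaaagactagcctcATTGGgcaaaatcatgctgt
Sc5d (chr9:42264301-42264450, minus strand): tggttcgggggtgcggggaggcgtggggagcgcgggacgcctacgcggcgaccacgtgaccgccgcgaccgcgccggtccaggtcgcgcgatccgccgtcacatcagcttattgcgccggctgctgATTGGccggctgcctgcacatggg
Pnpla3 (chr15:84167666-84167815, plus strand): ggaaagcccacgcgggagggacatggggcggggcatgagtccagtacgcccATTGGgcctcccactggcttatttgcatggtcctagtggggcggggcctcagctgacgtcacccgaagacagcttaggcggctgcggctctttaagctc

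The arrays were close in brightness, with median signals of 109 to 123 units. Stratified epithelium markers were bright in every tumor, at a mean log2 signal of 12.87 to 13.09, while hair follicle markers ranged from 7.34 to 11.23 and skeletal muscle markers from 6.42 to 10.84 within and across the groups. Mitosis genes averaged 8.47 to 8.86 in p53-/-, 9.17 to 9.42 in p53R172H/- and 8.86 to 9.15 in p53R172H/+ tumors. All values below are deposited signals in array units, fold changes are log2 differences of group means with their standard error (SE) from limma, and adjusted p-values are Benjamini-Hochberg adjusted over all 12167 genes. Where a pair of fold changes is given without naming the comparisons, the first is p53R172H/- and the other p53R172H/+ against p53-/- tumors.

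No listed gene, and none of the 12167 genes, passed an adjusted p of 0.05 with limma in any of the 4 comparisons, so the genes below are described by their values. At an unadjusted p under 0.05, 8 of the 30 listed genes (26.7%) differed between p53R172H/- and p53-/- tumors, beside 15.6% of all genes tested. Between p53R172H/+ and p53-/- tumors 5 did (16.7%), beside 10.3% of all genes. Between p53R172H/- and p53R172H/+ tumors 3 did (10%), beside 4.96% of all genes. For both mutant groups together against p53-/- tumors 7 did (23.3%), beside 15.9% of all genes. The median log2 fold change of the listed genes was 0.09, -0.07, 0.09 and 0.02 in these comparisons, and that of all genes -0.03, -0.03, -0.01 and -0.03. The comparisons with p53-/- tumors share the same 3 controls, and each mutant group enters 3 of the 4 comparisons, so these counts are not independent of each other.

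**Figure D1:**
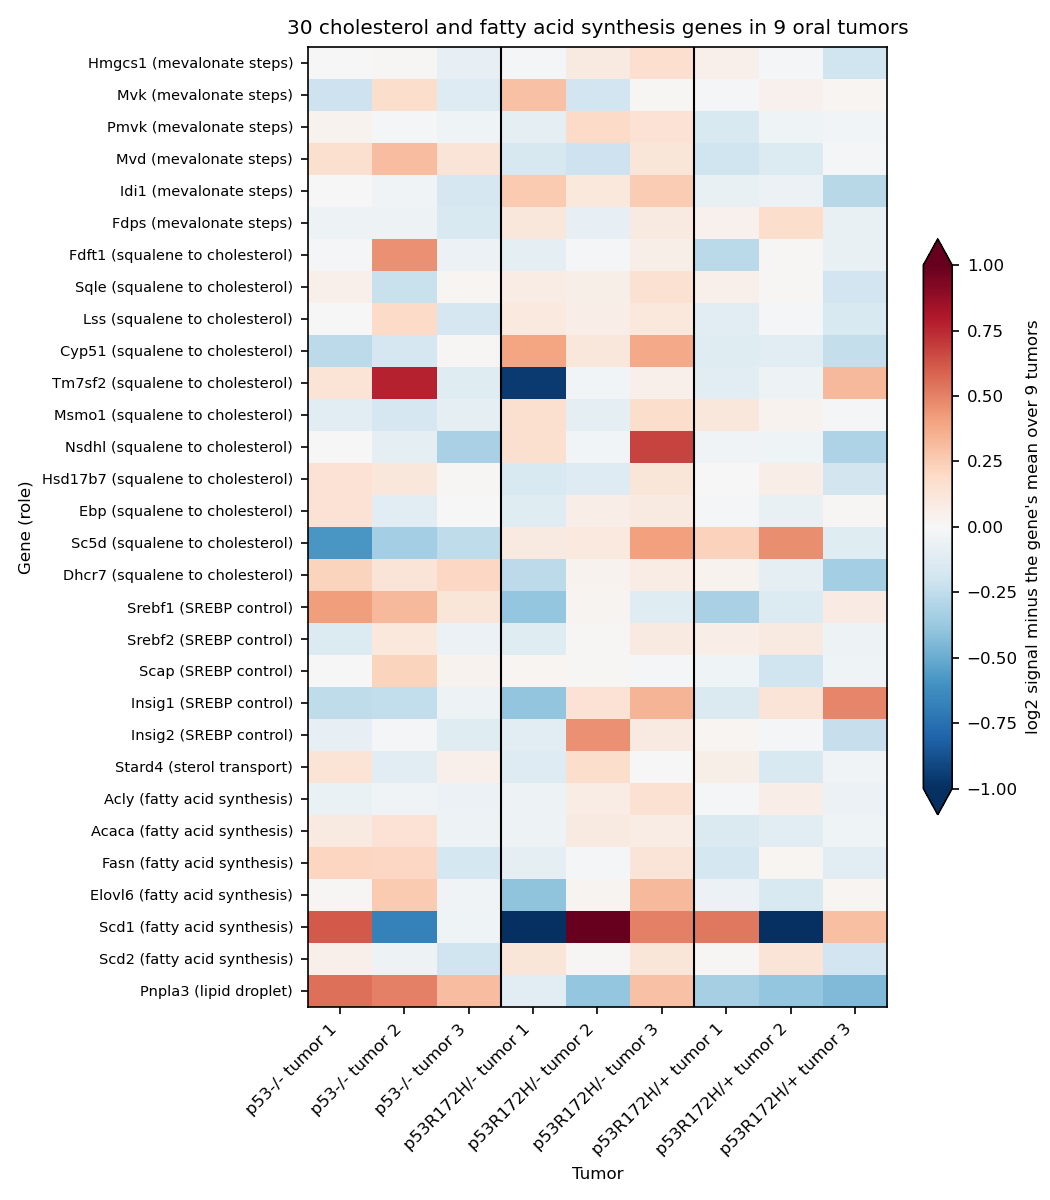
Log2 signal of 30 cholesterol and fatty acid synthesis genes (rows, in pathway order with their role) in 9 oral tumors (columns, grouped by genotype), as the difference from the gene's mean over the 9 tumors; the colour scale stops at 1 in either direction. Most rows stay pale, Scd1 varies from tumor to tumor within each genotype, Sc5d is low and Srebf1 and Pnpla3 are high in the p53-/- tumors, and Cyp51 and Idi1 are high in the p53R172H/- tumors.

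Most of the listed genes varied little between tumors. The ratio of the highest to the lowest tumor was 1.16 to 4.87 across the 30 genes, with a median of 1.38, and lay under 1.5 for 19 of them. Their median within-group SD was 0.129 on the log2 scale, against 0.163 for all genes tested, and 11 of the 30 exceeded the latter. Acly, the ATP-citrate lyase gene that supplies cytosolic acetyl-CoA, and Acaca, which encodes the first committed enzyme of fatty acid synthesis, were the steadiest, with SDs of 0.07 and 0.08. Scd1, a stearoyl-CoA desaturase, was the most variable with an SD of 0.92, followed by Tm7sf2, a sterol reductase, with 0.44. Among the tumors, p53R172H/- tumor 3 was highest for 6 of the 30 genes and lowest for 0, beside 6.88% and 7.91% of all genes. The tumor that was highest most often, p53-/- tumor 2, was so for 7 of the 30, beside 23.7% of all genes. The tumor that was lowest most often, p53R172H/+ tumor 3, was so for 6, beside 8.53%.

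Among the mevalonate steps, Idi1 had the clearest group difference. It encodes isopentenyl-diphosphate isomerase, which interconverts the 5-carbon building blocks of all isoprenoids. Its signal was 2323, 2269 and 2071 in p53-/- tumors, 2788, 2499 and 2784 in p53R172H/- tumors, and 2216, 2239 and 1919 in p53R172H/+ tumors. All 3 p53R172H/- tumors lay above the other 6. The log2 fold change was 0.28 ± 0.09 SE against p53-/- (limma, adjusted p = 0.258) and 0.34 ± 0.09 SE against p53R172H/+ tumors (adjusted p = 0.916). A second, dimmer probe set of Idi1 gave -0.08 and 0.05 for the same comparisons.

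Mvd, which encodes the mevalonate diphosphate decarboxylase one step before Idi1, was lower in both mutant groups. Its signal was 642, 709.97 and 629 in p53-/- tumors, 513, 498 and 626 in p53R172H/- tumors, and 500.5, 521 and 567 in p53R172H/+ tumors. Every p53-/- tumor lay above every mutant tumor, although p53R172H/- tumor 3 came within a few units of p53-/- tumor 3. The log2 fold changes against p53-/- were -0.28 ± 0.11 SE (limma, adjusted p = 0.289) and -0.32 ± 0.11 SE (adjusted p = 0.414), and a second probe set of Mvd gave -0.28 and -0.21.

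The remaining mevalonate genes overlapped between all groups. Hmgcs1, the HMG-CoA synthase gene whose promoter holds the sterol element core, was at 5178 to 5516 in p53-/-, 5423 to 6149.6 in p53R172H/- and 4768 to 5683 in p53R172H/+ tumors. The kinase gene Mvk ranged from 1955 to 2762 over all tumors, the next kinase gene Pmvk from 628 to 794, and Fdps, the farnesyl diphosphate synthase gene, from 3409 to 4264. Their log2 fold changes against p53-/- tumors were 0.10, 0.09, 0.09 and 0.12 in p53R172H/- and -0.03, 0.07, -0.07 and 0.13 in p53R172H/+ tumors.

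**Figure D2:**
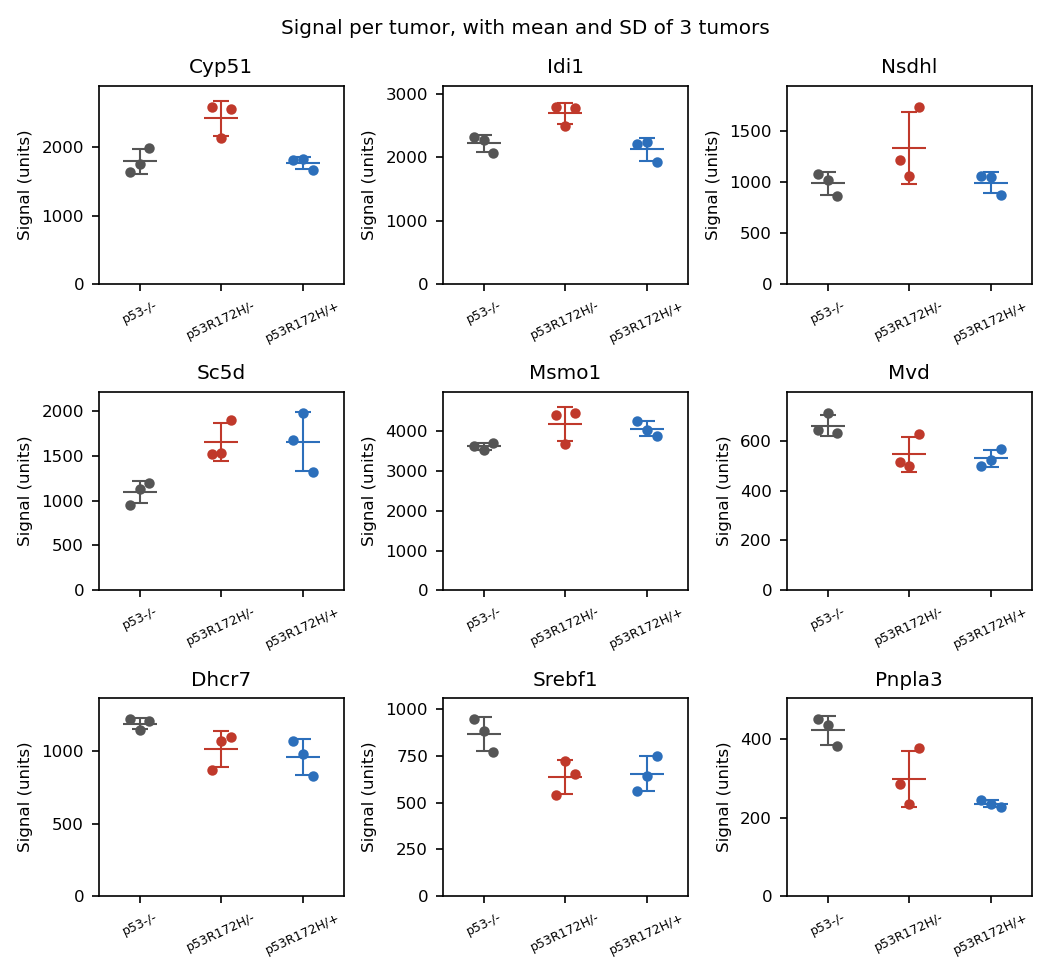
Signal per tumor (vertical axis, array units from 0) of 9 listed genes in p53-/-, p53R172H/- and p53R172H/+ tumors, with the mean and SD of 3 tumors. Cyp51 and Idi1 are higher in all 3 p53R172H/- tumors than in the other 6, Sc5d is higher in all 6 mutant tumors, and Mvd, Dhcr7, Srebf1 and Pnpla3 are lower in all 6 mutant tumors than in the p53-/- tumors.

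In the branch from squalene to cholesterol, Cyp51 separated p53R172H/- tumors from both other groups. It encodes lanosterol 14α-demethylase, which starts the removal of methyl groups from the sterol ring. Cyp51 was at 1638, 1748 and 1985 in p53-/- tumors, at 2578, 2125 and 2555 in p53R172H/- tumors, and at 1811, 1828 and 1665 in p53R172H/+ tumors. The group means were 1791 ± 177, 2419 ± 255 and 1768 ± 89.4 (SD, n = 3 each), and no p53R172H/- tumor overlapped with another group. The log2 fold change was 0.43 ± 0.10 SE against p53-/- (limma, adjusted p = 0.214) and 0.45 ± 0.10 SE against p53R172H/+ tumors (adjusted p = 0.916). A second probe set gave 0.52 and 0.31. On it p53R172H/- tumor 2, at 689, lay below p53-/- tumor 3, at 699, and p53-/- tumor 1 was far lower, at 362. In p53R172H/+ tumors Cyp51 was at -0.02 against p53-/-, where the second probe set gave 0.21.

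Nsdhl, which encodes a later dehydrogenase of the demethylation, had a similar order of means with more spread. Its signal was 1082, 1018 and 864 in p53-/-, 1212, 1062 and 1729.9 in p53R172H/-, and 1058, 1050.1 and 875 in p53R172H/+ tumors. The group mean of p53R172H/- tumors rested largely on tumor 3, and tumor 2 lay below p53-/- tumor 1. The log2 fold change was 0.41 ± 0.18 SE against p53-/- (limma, adjusted p = 0.312) and 0.40 ± 0.18 SE against p53R172H/+ tumors (adjusted p = 0.949), and without p53R172H/- tumor 3 it was 0.21 and 0.20.

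Msmo1 encodes the sterol C4-methyl oxidase of the same demethylation complex. It was at 3637, 3513 and 3697 in p53-/-, at 4403, 3688 and 4448 in p53R172H/-, and at 4265, 4038 and 3886 in p53R172H/+ tumors. All 3 p53R172H/+ tumors lay above the p53-/- tumors, and p53R172H/- tumor 2 lay among them. The log2 fold changes against p53-/- were 0.20 ± 0.08 SE (limma, adjusted p = 0.302) and 0.17 ± 0.08 SE.

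Sc5d, the sterol C5-desaturase gene, was higher in every mutant tumor than in every p53-/- tumor. It was at 955, 1130.0 and 1199 in p53-/- tumors, at 1521, 1533 and 1898 in p53R172H/- tumors, and at 1676, 1972 and 1314 in p53R172H/+ tumors. The log2 fold changes were 0.59 ± 0.16 SE (limma, adjusted p = 0.216) and 0.58 ± 0.16 SE (adjusted p = 0.359), and for both mutant groups together 0.59 ± 0.14 SE (adjusted p = 0.188). The mutant groups differed by 0.01, with a 95% interval from -0.35 to 0.37. A dimmer probe set of Sc5d, with a mean signal of 194, did not show this pattern and gave -0.01 and -0.30.

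Dhcr7, which encodes the reductase of the last step to cholesterol, had the opposite order to Sc5d, the enzyme gene just before it. Its signal was 1216, 1141 and 1201 in p53-/-, 869, 1068 and 1097 in p53R172H/-, and 1068, 977 and 826 in p53R172H/+ tumors, with all 6 mutant tumors below the p53-/- tumors. The log2 fold changes were -0.24 ± 0.12 SE and -0.32 ± 0.12 SE (limma, adjusted p = 0.442 for the latter).

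Sqle, the squalene epoxidase gene at the first oxygen-dependent step, was at 3544, 2936 and 3485 in p53-/-, 3609, 3573 and 3812 in p53R172H/-, and 3551, 3448 and 3003 in p53R172H/+ tumors. Its p53R172H/- tumors thus did not overlap with either group, at log2 fold changes of 0.15 ± 0.10 SE against p53-/- (limma, adjusted p = 0.458) and 0.14 ± 0.10 SE against p53R172H/+ tumors (adjusted p = 0.949). Lss, the lanosterol synthase gene, was at 799, 916 and 713 in p53-/-, 859, 841 and 866 in p53R172H/-, and 741, 794 and 723 in p53R172H/+ tumors. The mutant groups did not overlap, at 0.19 ± 0.10 SE (limma, adjusted p = 0.949), and the p53-/- tumors spanned both. Fdft1, the squalene synthase gene, ranged from 1799.6 to 2969.8, with p53-/- tumor 2 highest. Ebp, a sterol isomerase gene, ranged from 2103 to 2533. Tm7sf2 ranged from 232 in p53R172H/- tumor 1 to 769 in p53-/- tumor 2, and its log2 fold change in p53R172H/- against p53-/- tumors was -0.57 ± 0.30 SE.

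**Figure D3:**
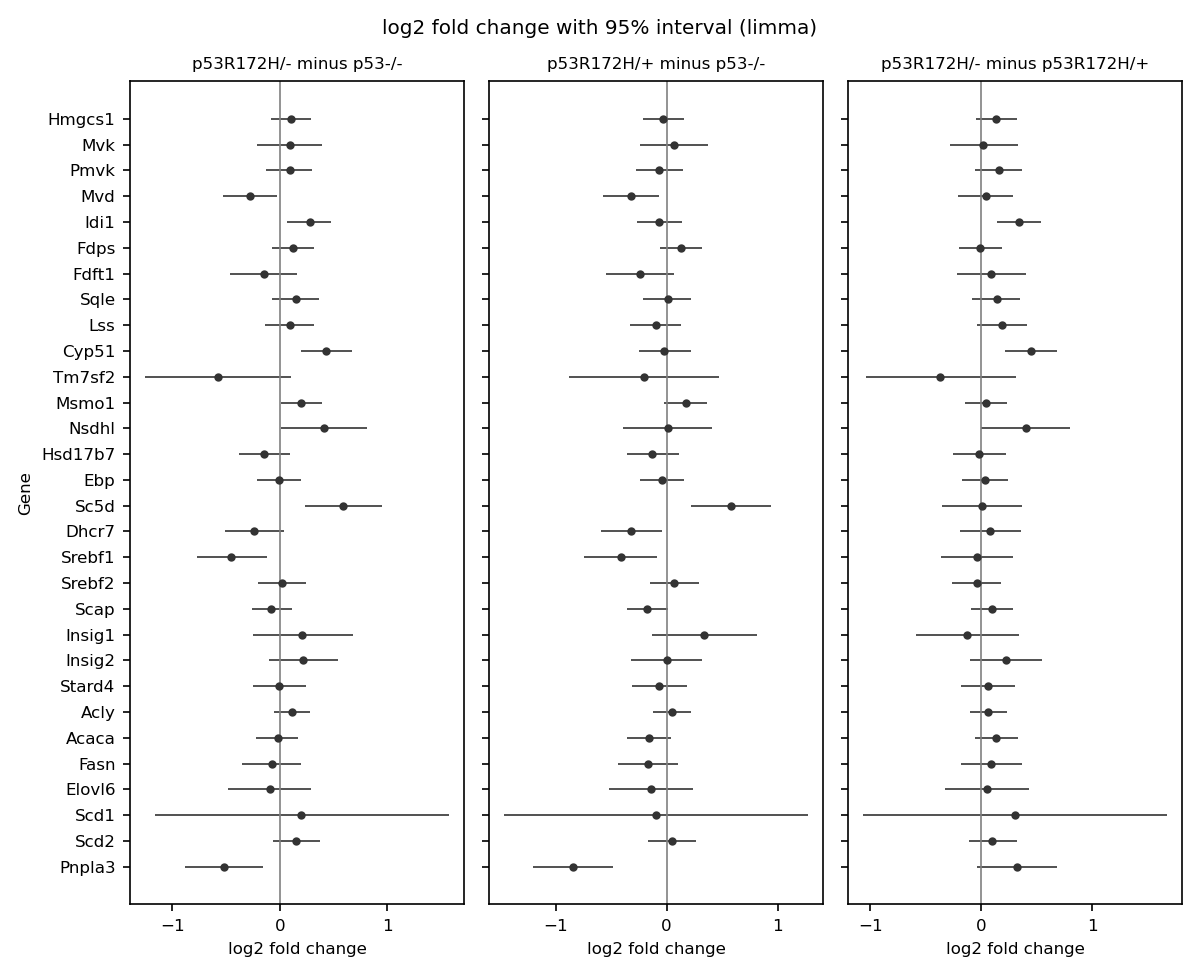
Log2 fold change (horizontal axis) with 95% interval from limma for 30 listed genes in 3 comparisons, 1 per panel. The intervals of Cyp51 and Idi1 lie above 0 in the first and last panels, that of Sc5d lies above 0 and those of Mvd, Srebf1 and Pnpla3 below 0 in the first and second, and Scd1 has the widest interval in each panel; the intervals are not adjusted for the number of genes.

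Of the SREBP control genes, Srebf1 differed most. It encodes SREBP1, and its transcripts include one that responds to insulin and liver X receptors. Srebf1 was at 944, 883 and 769 in p53-/- tumors, at 540.0, 720.4 and 649.5 in p53R172H/- tumors, and at 564, 643 and 749.97 in p53R172H/+ tumors. All 6 mutant tumors lay below the p53-/- tumors, with p53R172H/+ tumor 3 close to p53-/- tumor 3. The log2 fold changes were -0.45 ± 0.14 SE (limma, adjusted p = 0.257) and -0.41 ± 0.14 SE (adjusted p = 0.414), and -0.43 ± 0.13 SE for both groups together (adjusted p = 0.227). In these bulk samples, fewer cells of a type and less RNA per cell cannot be told apart.

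Srebf2, which encodes SREBP2, the main activator of the cholesterol genes, overlapped between all groups at 699 to 827. Scap, its escort protein gene, was at 2409.8, 2817 and 2482 in p53-/-, 2455, 2430.4 and 2399 in p53R172H/-, and 2351, 2106 and 2349 in p53R172H/+ tumors. The p53R172H/+ tumors lay below both other groups, at -0.18 ± 0.08 SE against p53-/- (limma, adjusted p = 0.496), and the p53R172H/- tumors were at 0.10 ± 0.08 SE against them (adjusted p = 0.949). Insig1, a retention factor gene and itself an SREBP target, spread widely within the mutant groups. It was at 459, 461 and 529 in p53-/-, 416, 605 and 695 in p53R172H/-, and 495, 600.1 and 767 in p53R172H/+ tumors. Its log2 fold changes were 0.21 ± 0.21 SE and 0.34 ± 0.21 SE. Insig2 ranged from 549.5 to 889, and Stard4, which encodes a sterol carrier, from 1113 to 1395.

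Pnpla3 had the smallest p-values of the listed genes in 2 of the 4 comparisons. It encodes a lipid droplet protein with lipase activity and is a known SREBP1 target. Pnpla3 was at 449.8, 435 and 381 in p53-/- tumors, at 286, 235 and 376 in p53R172H/- tumors, and at 244, 235 and 226 in p53R172H/+ tumors. Every mutant tumor lay below every p53-/- tumor, although p53R172H/- tumor 3 nearly reached them, and the p53R172H/+ tumors lay close together. The group means were 422 ± 36.3, 299 ± 71.5 and 235 ± 8.94 (SD, n = 3 each). The log2 fold change was -0.52 ± 0.16 SE in p53R172H/- (limma, adjusted p = 0.246) and -0.84 ± 0.16 SE in p53R172H/+ tumors (adjusted p = 0.359), where its p ranked 11 among all genes. For both groups together it was -0.68 ± 0.14 SE (adjusted p = 0.183). The mutant groups differed from each other by 0.32 ± 0.16 SE.

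On their brightest probe sets, all 6 fatty acid synthesis genes overlapped between the groups. Acly was at 2445 to 2492 in p53-/-, 2476 to 2837 in p53R172H/- and 2455 to 2674 in p53R172H/+ tumors. Acaca ranged from 612 to 746, and Fasn, the fatty acid synthase gene, from 1558 to 2046. Their log2 fold changes in p53R172H/- and p53R172H/+ tumors against p53-/- were 0.11 and 0.05 for Acly, -0.02 and -0.16 for Acaca, and -0.07 and -0.17 for Fasn. Elovl6, which encodes an elongase of saturated chains, ranged from 898 to 1489.8, both in p53R172H/- tumors.

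Scd2, the stearoyl-CoA desaturase gene of brain and early skin, was at 5155 to 6475 on its brightest probe set, with log2 fold changes of 0.15 and 0.05. Its other probe sets gave larger differences. The dimmest of 3 was at 396, 194 and 408 in p53-/-, 1003, 648 and 528 in p53R172H/-, and 832, 707 and 377 in p53R172H/+ tumors. All 3 p53R172H/- tumors lay above the p53-/- tumors on it, while p53R172H/+ tumor 3 lay among them. Its log2 fold changes were 1.15 and 0.94, and those of the remaining probe set were 0.54 and 0.31.

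Scd1, the desaturase gene of sebaceous glands, fat and liver, varied more within groups than between them. Its signal was 3051, 1253 and 1936 in p53-/- tumors, 965, 4143 and 2832 in p53R172H/- tumors, and 2878, 851 and 2466 in p53R172H/+ tumors. Every genotype held both high and low tumors, and the within-group SD of Scd1 lay at the 98.7th percentile of all genes. The 95% interval of the p53R172H/- against p53-/- difference ran from -1.16 to 1.57 on the log2 scale. A second, dimmer probe set was at 385, 261 and 397 in p53-/-, 298, 627 and 505 in p53R172H/-, and 623, 225 and 503 in p53R172H/+ tumors, with the lowest and highest values in the same tumors.

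Markers chosen for sebaceous glands were compared with the brightest probe set of Scd1 across tumors. Their mean log2 signal, without the desaturase gene Scd3, was 9.20, 8.29 and 8.65 in p53-/-, 7.84, 9.59 and 9.02 in p53R172H/-, and 9.03, 7.24 and 9.07 in p53R172H/+ tumors. The 4 tumors lowest in Scd1 were the 4 lowest in these markers, in the same order, and the 2 highest were the same as well. On the dimmer Scd1 probe set the order differed, since p53-/- tumor 1, which ranked 8 from the lowest on the brighter one, ranked 4, and p53-/- tumor 2 lay below p53R172H/- tumor 1. Elovl3, an elongase gene of sebaceous glands and hair follicles, was at 868, 146 and 419 in p53-/-, 105, 1593 and 646 in p53R172H/-, and 960, 49.5 and 772 in p53R172H/+ tumors. Cidea, a lipid droplet gene of the same list, did not follow this order, at 672, 647 and 551 in p53-/-, 810, 799 and 833 in p53R172H/-, and 980, 594 and 784 in p53R172H/+ tumors. It was the list's 1 gene with an unadjusted p under 0.05 in p53R172H/- against p53-/- tumors, at 0.39. The hair follicle list was lowest in p53R172H/+ tumor 2, at 7.34, and p53R172H/- tumor 1, at 7.84, and highest in p53R172H/- tumor 2, at 11.23. Skeletal muscle markers were lowest and highest in the same tumors, at 6.42, 6.61 and 10.84. Of the 10 listed sebaceous genes, 7 were on the array. Mc5r, a receptor gene of sebaceous cells, was at 25.8 to 46.3, under the floor of 52.6 units. Of the 8 fat cell genes on the array, Adipoq and Lep were at 32.4 to 57.8, under or near the floor. Fabp4, which endothelial cells and macrophages also express, was at 3983 to 7842, Lipe at 243 to 336, Plin4 at 166 to 243 and Cidec at 76.1 to 147. The mean over all 8, of which 4 passed the brightness limit, spanned 7.37 to 7.57. The full sebaceous list, Scd3 included, was also put in the model, a choice made after seeing the data. The log2 fold change of Scd1 was then 0.08 in p53R172H/- and 0.22 in p53R172H/+ tumors against p53-/-, and -0.15 between the mutant groups. Without the list these had been 0.20, -0.10 and 0.30, each with an SE of 0.61.

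**Figure D4:**
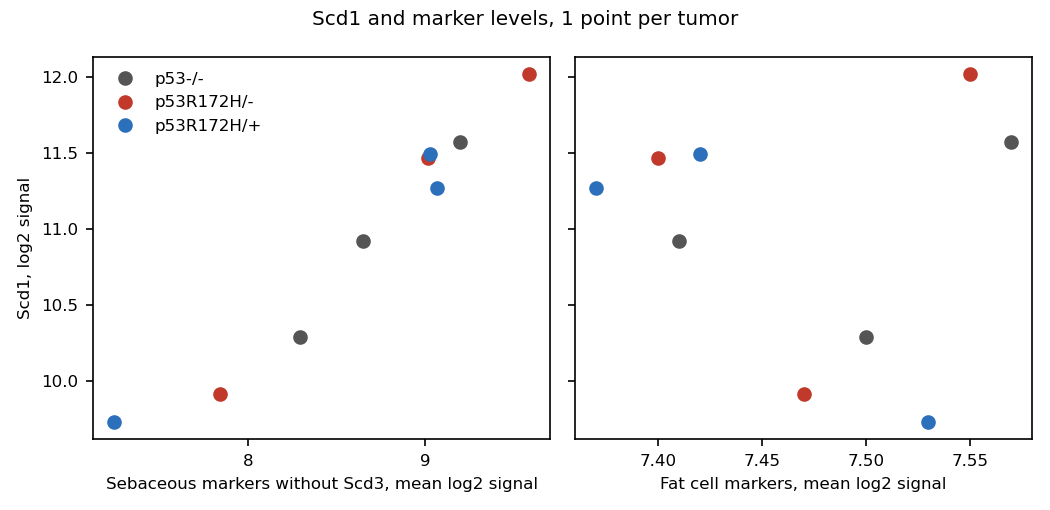
Log2 signal of Scd1 (vertical axis) against the mean log2 signal of sebaceous markers without Scd3 (left) and of fat cell markers (right), 1 point per tumor coloured by genotype. Points climb from lower left to upper right in the left panel, from p53R172H/+ tumor 2 to p53R172H/- tumor 2, with each genotype spread along the line, and show no such order against the fat cell markers, whose axis spans 7.37 to 7.57.

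Setting p53R172H/- against p53-/- tumors compares the mutant allele, without a wild-type one, with the absence of p53. Of the 8 listed genes with an unadjusted p under 0.05, 5 were higher (Cyp51, Idi1, Msmo1, Nsdhl and Sc5d). They were 16.7% of the 30, beside 6.44% of all genes. The 3 lower ones (Mvd, Pnpla3 and Srebf1) were 10% of the 30, beside 9.16% of all genes. The groups did not overlap for 8 listed genes (26.7%), beside 22.9% of all genes. Of these 4 (13.3% of the 30) were higher (Cyp51, Idi1, Sc5d and Sqle), beside 9.11% of all genes. The other 4 (13.3%) were lower (Dhcr7, Mvd, Pnpla3 and Srebf1), beside 13.8%. The mean of p53R172H/- tumors was higher for 17 of the 30 genes (56.7%), beside 43.8% of all genes. Mitosis genes were higher in the same tumors, with 11 of 11 at an unadjusted p under 0.05, and the list's mean did not overlap between these groups. At the same threshold 9 of 12 fibroblast genes were lower, most of them collagen and other matrix genes. The other 3 had higher means, Dcn at 0.64, Pdgfra at 0.46 and Thy1 at 0.02. With the mean of the mitosis list in the model, 2 of the 8 genes kept an unadjusted p under 0.05, Sc5d at 0.99 and Pnpla3 at -0.86. The others were Cyp51 at 0.49, Idi1 at 0.08, Msmo1 at 0.01, Nsdhl at 0.06, Mvd at -0.20 and Srebf1 at -0.31. Cyp51 thus lost its small p at a fold change no smaller than the 0.43 without the list. The mean of the mitosis list followed genotype in these tumors, so this model separates mitosis from genotype poorly. The part of fibroblast content in these differences was not tested. Without p53-/- tumor 2 the count of 8 genes was 5.

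The comparison of p53R172H/+ with p53-/- tumors sets the same mutant allele, with a wild-type allele by genotype, against loss. Of its 5 genes, Sc5d was higher (3.33% of the 30), beside 4.75% of all genes. Dhcr7, Mvd, Pnpla3 and Srebf1 were lower (13.3% of the 30), beside 5.60%. Groups that did not overlap were found for 7 listed genes (23.3%), beside 15.9% of all genes. Of these 2 (6.67% of the 30) were higher (Msmo1 and Sc5d), beside 7.08% of all genes. The other 5 (16.7%) were lower (Dhcr7, Mvd, Pnpla3, Scap and Srebf1), beside 8.86%. The mean of p53R172H/+ tumors was higher for 10 of the 30 genes (33.3%), beside 43.9% of all genes. Mitosis genes were higher at an unadjusted p under 0.05 for 7 of 11. With the mitosis list in the model, 2 of the 5 genes kept an unadjusted p under 0.05, Pnpla3 at -1.03 and Sc5d at 0.81, and Dhcr7 was at -0.32, Mvd at -0.28 and Srebf1 at -0.33. Here too the list's mean rose with genotype, which this model separates poorly from mitosis. The count of 5 genes was 3 without p53R172H/+ tumor 1.

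The mutant groups differ, by genotype, in the second allele. Between them, p53R172H/- tumors had the higher mean for 24 of the 30 listed genes (80%), beside 48.0% of all genes. The differences were small, with a median of 0.09. At an unadjusted p under 0.05, 3 genes (10% of the 30) were higher (Cyp51, Idi1 and Nsdhl), beside 2.00% of all genes. In the other direction 0 were lower, beside 2.96%. Nsdhl lay at the threshold (limma, unadjusted p = 0.0498). It stayed under it in 3 of 16 alternative settings and in 1 of 9 fits with 1 tumor left out. The groups did not overlap for 6 genes (20%), beside 11.9% of all genes. All 6 were higher in p53R172H/- tumors (Cyp51, Idi1, Lss, Nsdhl, Scap and Sqle), beside 5.27% of all genes in that direction, and 0 were lower, beside 6.62%. All 6 fatty acid synthesis genes and 9 of the 11 genes from squalene to cholesterol were among the 24. Of the mitosis genes 4 of 11 were higher in p53R172H/- tumors at this threshold. With the mitosis list in the model, 1 of the 3 genes kept an unadjusted p under 0.05, Cyp51 at 0.47, and Idi1 was at 0.25 and Nsdhl at 0.24. The list's mean did not overlap between the mutant groups, so mitosis and genotype are poorly separated in this model. In this comparison 9 of 12 fibroblast genes were lower in p53R172H/- tumors at an unadjusted p under 0.05, and their part was not tested. Again most were matrix genes, while Pdgfra was at -0.21, Dcn at 0.16 and Thy1 at 0.01.

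With both mutant groups set jointly against p53-/- tumors, 3 genes were higher at an unadjusted p under 0.05 (Cyp51, Msmo1 and Sc5d). They were 10% of the 30, beside 6.84% of all genes. The 4 lower ones (Dhcr7, Mvd, Pnpla3 and Srebf1) were 13.3% of the 30, beside 9.09%. The 6 mutant tumors did not overlap with the p53-/- tumors for 5 genes (16.7%), beside 7.27% of all genes. Of these Sc5d was higher (3.33% of the 30), beside 3.34% of all genes. Dhcr7, Mvd, Pnpla3 and Srebf1 were lower (13.3% of the 30), beside 3.94%. The mean of the mutant tumors was higher for 16 of the 30 genes (53.3%), beside 43.5%. Mitosis genes were higher at an unadjusted p under 0.05 for 9 of 11, and with their list in the model 2 of the 7 genes kept such a p, Sc5d at 0.90 and Pnpla3 at -0.95. That model separates mitosis from genotype poorly, since the list's mean rose with genotype. The count of 7 was 4 without p53-/- tumor 1 and 4 without p53-/- tumor 2.

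Several genes were read by more than 1 probe set, and these did not always give the same direction. Of the 16 listed genes with another probe set above the brightness limit, 7 had a probe set of opposite sign in p53R172H/- against p53-/-, 10 in p53R172H/+ against p53-/- and 7 between the mutant groups. Hsd17b7, which encodes a ketosteroid reductase of the demethylation complex, was at -0.15 and -0.13 on its brightest probe set. Its other probe sets gave 0.52 and 0.54, and 0.28 and 0.04. The brightest ranged from 928 to 1166 units and carries the platform's mark for probes that may match other transcripts. The brightest probe sets of Mvd, Lss and Fdft1 carry a mark of this kind as well. Stard4 was at -0.01 and -0.07, with another probe set at 0.42 and 0.24. Lss and Elovl6 gave the same sign on each probe set in each of the 3 comparisons.

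**Figure D5:**
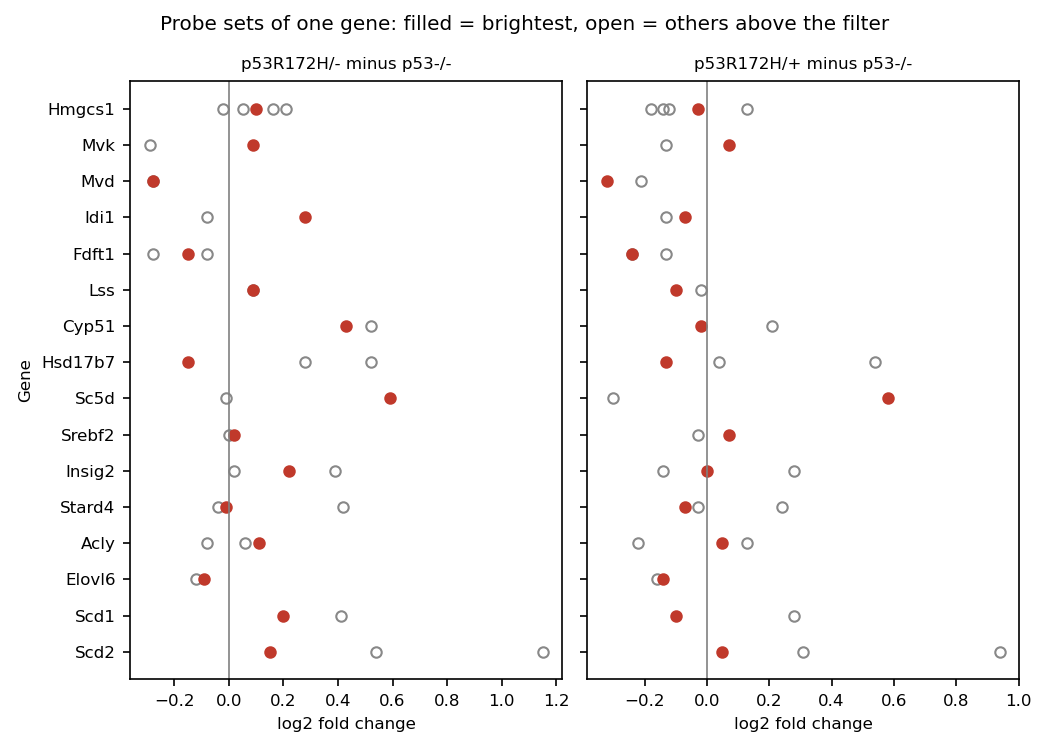
Log2 fold change (horizontal axis) of every probe set above the brightness limit for 16 listed genes, in p53R172H/- (left) and p53R172H/+ (right) against p53-/- tumors; filled points are the brightest probe set and open points the others. The probe sets of Mvd, Fdft1, Elovl6 and Scd2 lie on 1 side of 0 in both panels, whereas those of Sc5d, Mvk and Hsd17b7 lie on both sides.

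Genes of neighbouring lipid pathways were taken from 4 lists, and none had an adjusted p under 0.05 in any comparison. In the isoprenoid branch, which makes prenyl groups, dolichol and ubiquinone, 10 genes were tested. Nus1, a subunit gene of the dolichol-making enzyme, was at 664, 617 and 654 in p53-/- tumors and at 883, 706 and 757 in p53R172H/- tumors, a log2 fold change of 0.27 ± 0.10 SE (limma, adjusted p = 0.271). Pdss2, a subunit gene of the enzyme that makes the ubiquinone side chain, was at 358, 309 and 290 in p53-/- tumors and at 233, 214 and 239 in p53R172H/+ tumors, a log2 fold change of -0.48 ± 0.11 SE (adjusted p = 0.359). Fntb and Coq2 were at -0.32 and -0.25 in the same comparison, and these 3 were the branch's genes with an unadjusted p under 0.05 there, all lower, beside 5.60% of all genes. Between the mutant groups, Pdss2 was at 0.26 and Rabggta at -0.19.

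None of 13 tested genes of sterol sensing, storage and movement had an unadjusted p under 0.05 in any comparison, and their medians were 0.06 and 0.00 against p53-/- tumors. Among 14 genes that supply acetyl-CoA and NADPH or extend fatty acids, 4 had a higher mean in p53R172H/- and 2 in p53R172H/+ tumors, beside 43.8% and 43.9% of all genes. In each comparison 1 of the 14 was lower at an unadjusted p under 0.05, beside 9.16% and 5.60% of all genes. They were Mcat, a mitochondrial acyltransferase gene, at -0.27 in p53R172H/-, and the elongase gene Elovl1 at -0.22 in p53R172H/+ tumors.

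Of 12 tested genes of triglyceride synthesis and storage, Acsl3, an acyl-CoA synthetase gene of lipid droplets, was higher, at 153, 135 and 133 in p53-/-, 221, 222 and 189 in p53R172H/-, and 212, 220 and 139 in p53R172H/+ tumors. All 3 p53R172H/- tumors lay above the p53-/- tumors, and p53R172H/+ tumor 3 lay among them. Its log2 fold changes were 0.58 ± 0.18 SE (limma, adjusted p = 0.243) and 0.41 ± 0.18 SE (adjusted p = 0.467). Dgat2, which encodes an enzyme of the last step to triglyceride, was at 4067, 4470 and 4186 in p53-/-, 3294, 3768 and 3855 in p53R172H/-, and 3501, 3685 and 3197 in p53R172H/+ tumors. All 6 mutant tumors lay below the p53-/- tumors, at log2 fold changes of -0.22 ± 0.09 SE (adjusted p = 0.283) and -0.29 ± 0.09 SE (adjusted p = 0.359). Pparg, a lipid-sensing nuclear receptor gene, was at -0.53 in p53R172H/- tumors, and Gpam, which encodes an enzyme of the first step, at -0.43 in p53R172H/+ tumors. Acsl5 was at 0.34 between the mutant groups.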

How the data were processed

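Per the labels' protocols, biotin-labelled cRNA of each of the 9 tumors went on 1 Affymetrix array. The authors deposited linear intensities computed with MAS5, per the submitters' processing notes, with its version and scaling not given in the sources used here. Of 45101 probe sets, 64 were controls, 34945 had 1 gene symbol, and 932 with several and 9160 with none were not used.

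Intensities under the 20th percentile (52.6 units) were set to that value before log2 was taken, and the arrays were not normalized further. Genes whose brightest probe set had a mean under 113 units, the median, were left out. In limma 3.58.1 (R 4.3.3) 1 model with group means covered all 9 arrays and 4 comparisons, and eBayes used a variance trend. Tests were two-sided. The scripts were tested on simulated data. All listed genes are named, those with an unadjusted p under 0.05 or groups that do not overlap in full, and from each neighbouring list up to 4 genes with the smallest p in each comparison. Members and lists were chosen with earlier results of these data known. The targeted gene is not reported here and was not used to check the labels. Alternatives changed the normalization, floor, filter, probe set, variance model, arrays used and covariates.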

Additional observations from a re-analysis of the deposited data

How the results depend on the processing

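No listed gene had an adjusted p under 0.05 under any alternative. Over all genes, 25 had one in p53R172H/- against p53-/- tumors and 4 in both mutant groups against p53-/- tumors with skeletal muscle markers as a covariate, and 0 to 1 in the latter with 1 tumor left out (1 without p53R172H/+ tumor 3). The number of listed genes with an unadjusted p under 0.05 was 2, 2, 1 and 2 with the mitosis covariate, in the order p53R172H/- against p53-/-, p53R172H/+ against p53-/-, p53R172H/- against p53R172H/+, and both against p53-/-. It was 4 in the last with the fat cell covariate, and 5 in the first when only the groups compared were fitted. With 1 tumor left out it was 5 to 8, 3 to 6, 2 to 4 and 4 to 7. The median log2 fold change of the listed genes in p53R172H/- against p53-/- tumors was 0.088. It was 0.015 with the skeletal muscle covariate and 0.157 with arrays centred on their medians, which moves all genes. For both mutant groups against p53-/- tumors the median was 0.024, and -0.023 with the mitosis covariate and 0.092 with centred arrays. The mitosis list followed genotype, so its model separates them poorly, and the causes were not tested. Among the genes with an unadjusted p under 0.05, 0 had a change of sign under any alternative. They were picked by that p in the same arrays, so their stable sign is no independent check. No alternative used the dimmer probe sets of Idi1 and Sc5d alone. Against p53-/- tumors these gave -0.08 for Idi1 in p53R172H/- tumors, and -0.01 and -0.30 for Sc5d. Of the other 22, 25, 27 and 23 listed genes, 15, 17, 14 and 18 had a change of sign under at least 1 alternative, in the same order of comparisons.

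Deviations of same-numbered tumors of different groups correlated at -0.50 to 0.24, and those of differently numbered tumors at -0.47 to 0.52. These values cannot settle whether the numbers pair the tumors. With the tumor number as a replicate block, 7, 5, 2 and 7 listed genes had an unadjusted p under 0.05 and 0 an adjusted one. With 3 tumors a group, the number of arrays limits the precision.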
